A study of Mus musculus with 6 samples.

Results

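The genes described here encode the enzymes of glycolysis and of the pentose phosphate pathway, the transporters that bring in glucose and export lactate, and regulators and targets of the hypoxia response. A list of 37 gene symbols was looked up by name among the probes of the array. Of these, 36 were found, on 67 probes, and 35 had at least 1 probe well above background on 3 or more arrays, of 16395 gene names with such a probe. All 35 were above background on all 6 arrays by their brightest probe. Pkm2, which encodes pyruvate kinase, was not found under that symbol, and none of the 4 probes of Vegfa, a growth factor for blood vessels, was above background on any array.

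The samples were RNA of liver CD8+ T cells, sorted from female mice (C57BL/6, 13 to 14 weeks old). Both groups carried dnTGFβRII, a dominant negative TGF-beta receptor II, which in the mouse line of this name is driven in T cells by the CD4 promoter. The TG group carried this transgene alone, and TGC3 mice were in addition CXCR3-/-, without this chemokine receptor. Each group had 3 samples, each read on 1 one-colour array and named here by group and replicate. No sample came from a mouse without the transgene, and the labels do not say whether each sample was a different mouse. The p-values therefore measure the spread between these samples, which may be technical. The series asked what CXCR3 does in the activation and proliferation of these cells.

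Glycolysis splits glucose into pyruvate in the cytosol and yields ATP without oxygen, and lactate dehydrogenase turns pyruvate into lactate. Activated T cells are known to raise this flux, with glucose carriers, hexokinase and lactate dehydrogenase among the genes they induce. The pentose phosphate pathway branches off at glucose 6-phosphate and supplies NADPH and ribose for nucleotides. In the hypoxia response, the factor HIF-1 binds a short core in promoters of many of these genes, and prolyl hydroxylases mark its alpha subunit for decay when oxygen is present.

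The 75th percentile of the signal lay between 561 and 623 intensity units on the 6 arrays, and 58.9% to 63.8% of 41163 probes were well above background. Cxcr3 had a signal of 23.8 to 33.0 intensity units in TGC3 and of 66110 to 73350 in TG (log2 change -11.35 ± 0.12, limma adjusted p = 8.5e-07). Of 7 CD8 T cell markers, 6 were measured, with 0 higher and 1 lower in TGC3 and a median log2 change of -0.21. The summed linear signal of these 6 was 592 to 641 in TGC3 and 654 to 728 in TG, in units of each array's 75th percentile. The groups did not overlap, with TGC3 lower. The TGC3 arrays shared 1 slide and scan run and the TG arrays another, so slide, scan run and genotype cannot be told apart in any value below. Markers of other cells were summed per list. The summed linear signal of the neutrophil markers (3 of 8 measured, 2 of them higher and 0 lower, Elane on no array) was 1.59 to 7.78 in TGC3 and 0.105 to 0.164 in TG, in units of each array's 75th percentile. That of macrophage and monocyte markers (4 of 8 measured, 2 higher and 0 lower) was 1.00 to 3.1 against 0.633 to 0.773. That of erythroid markers (4 of 8 measured, 2 higher and 0 lower, Alas2 and Klf1 on no array) was 0.94 to 1.09 against 0.83 to 0.861, and that of endothelial markers (4 of 8, 2 higher and 0 lower, Kdr, Cdh5 and Lyve1 on no array) 0.769 to 0.835 against 0.636 to 0.721. B cell markers (5 of 8, 3 higher and 1 lower, Pax5 and Blk on no array) and dendritic cell markers (5 of 8, 2 higher and 0 lower, Siglech, Clec9a and Cd209a on no array) overlapped between the groups, at 6.08 to 6.54 against 6.22 to 7.52 and 14.4 to 23.9 against 18.4 to 21.0. The part of these cells in the values below was not tested. In a bulk sample, fewer cells of a type and less RNA per cell cannot be told apart.

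Most genes of this set differed little between TGC3 and TG. Of 35 read by their brightest probe, 1 was higher in TGC3, 3 were lower and 31 did not pass an adjusted p of 0.05, which is 11.4% called. Over all genes 24.6% were called, 16.1% higher and 8.53% lower. These shares are not matched for brightness. With only probes above the median signal, 1 of 28 genes of the set was higher and 5 were lower. Of 9127 genes in that setting, 867 were higher and 1442 lower. The median change was 0.044 on the log2 scale for the set and -0.0089 for all genes, and the changes of the set ran from -0.52 (Slc16a1) to 0.51 (Aldoc), with 0 at least 2-fold, where 3.12% of all genes were called at least 2-fold higher. The values of the 3 TGC3 and 3 TG arrays did not overlap for 13 of 35 genes (37.1%), against 46.7% of all genes. The 95% interval of the change lay within 2-fold either way for all 35, and within 1.5-fold for 26 of 35, where these shares were 86.3% and 65.0% over all genes. The spread between replicates was alike, with a median SD of 0.120 for the set and 0.115 for all genes. With each array centred on its median, which shifts the median of all genes to -0.18, the median of the set was -0.13, with 0 of its genes higher and 9 lower, and over all genes 1816 were higher and 4755 lower in place of 2643 and 1398 (65.4% higher). The numbers in the set changed when 1 array was left out. Without TG 1 none was higher or lower. Without TGC3 1, TGC3 3 or TG 2 none was higher and 1 lower, and without TG 3 none was higher. Without TGC3 2, 1 was higher and 4 were lower. Calls over all genes also fell with 1 array left out, to 1593 to 2264 higher and 478 to 1349 lower. Under a normexp background correction on the deposited backgrounds, limma called 0 genes of the set, with 0 at an unadjusted p under 0.05. Over all genes it called 0 higher and 1 lower, with 534 at an unadjusted p under 0.05. With 7 aberrant backgrounds of TG 3 replaced, 2 genes of the set were higher and 5 lower, against 2017 and 1834 of all genes. Aldoc, Slc16a1, Pfkm and Pfkfb3 passed in that setting.

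**Figure D1:**
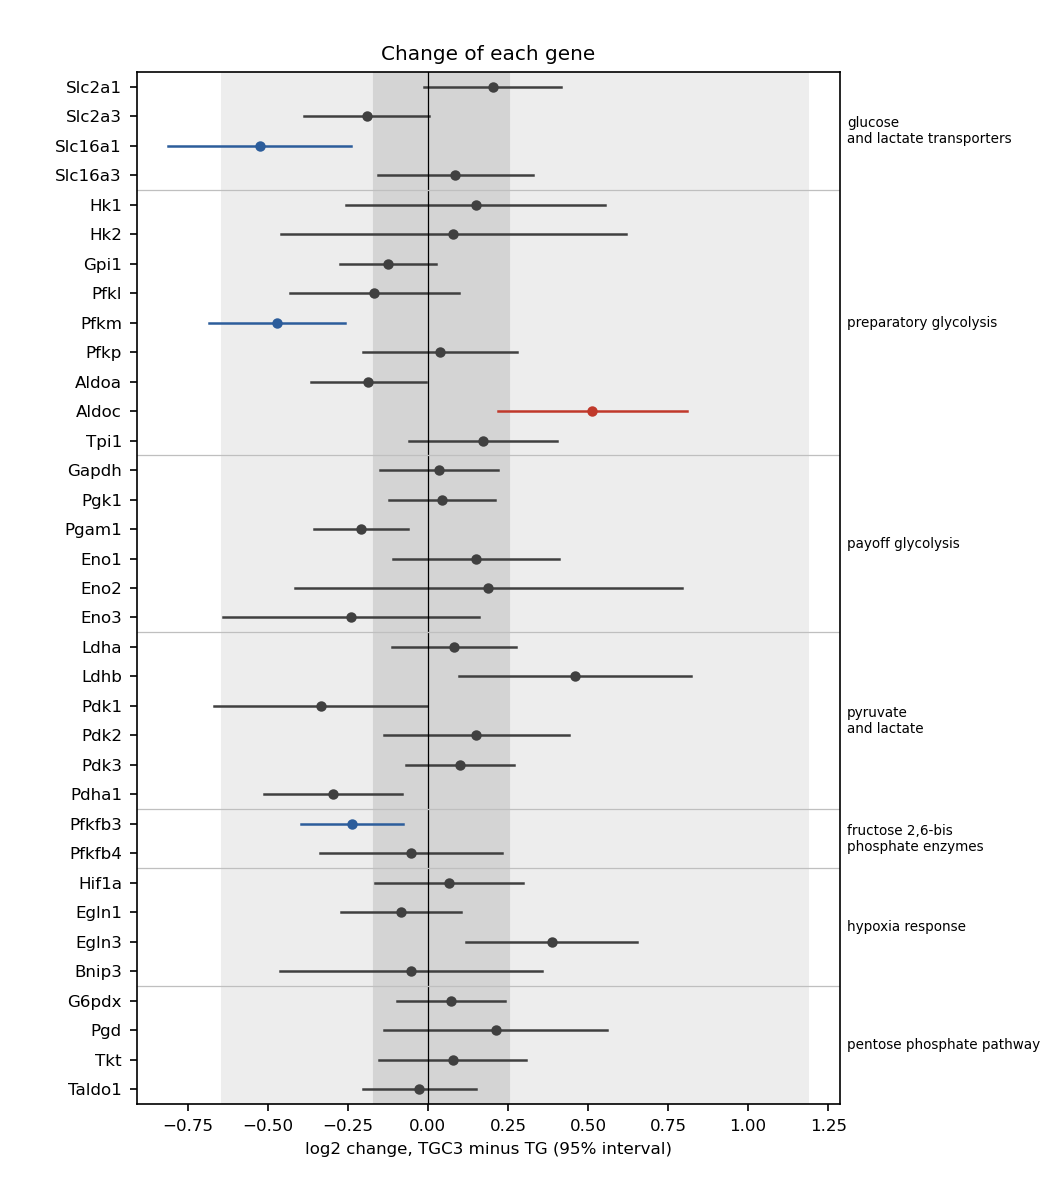
Change of each of the 35 genes as log2 of TGC3 minus TG (horizontal axis), with points for the limma estimate and bars for its 95% interval, grouped by role; red is higher and blue lower at an adjusted p under 0.05. The dark band holds the middle of all genes (25th to 75th percentile, -0.17 to 0.25) and the light band the central 95% (-0.64 to 1.19); 1 gene is red and 3 are blue.

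Values below are log2 signals after subtraction of each array's 75th percentile, changes are TGC3 minus TG with limma's standard error (n = 3 arrays in each group), and adjusted p is by Benjamini-Hochberg over 25103 probes. Probe positions refer to mm9, the build of the file headers.

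Among the transporters, the lactate carrier Slc16a1 was the gene that fell most in the whole set. It encodes MCT1, which moves lactate and pyruvate with a proton across the membrane. Its brightest probe (chr3:104460941-104461000) read 1.47, 1.86 and 1.77 on the TGC3 arrays in order of replicate, against 2.21, 2.34 and 2.13 on the TG arrays in the same order. All TGC3 values lay below all TG values, with TGC3 1 the lowest. The change was -0.52 ± 0.12, or 1.44-fold lower (adjusted p = 0.0264). Both other Slc16a1 probes had changes of like size, -0.50 ± 0.13, which passed (adjusted p = 0.0382), and -0.43 ± 0.14, which did not (0.0674). The brightest probe did not pass without TGC3 3 or without any 1 TG array (adjusted p = 0.0509 to 0.0847). Nor did it pass with cyclic loess (0.0505), with no filter on dim probes (0.0663) or with a normexp background correction (-0.19, 0.771).

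The glucose carriers did not pass. Slc2a1, the GLUT1 carrier of activated T cells, read 2.70, 2.93 and 2.75 in TGC3, against 2.60, 2.68 and 2.49 in TG. The TGC3 values lay just above the TG values, but the change of 0.20 ± 0.089 did not pass (adjusted p = 0.152, 95% interval -0.012 to 0.42). Slc2a3, the high-affinity carrier GLUT3, read 3.73, 3.52 and 3.57 in TGC3, against 3.78, 3.74 and 3.87 in TG, with all TGC3 values below all TG values and no pass (-0.19 ± 0.081, adjusted p = 0.141). A second Slc2a3 probe had a change of -0.083 (adjusted p = 0.421). A further, dim probe named Slc2a3 had a change of 0.37 (adjusted p = 0.0699), but the files place it on chromosome 17, while the gene lies on chromosome 6. Slc16a3, the lactate exporter MCT4, differed by 0.085 ± 0.100 with overlapping groups (adjusted p = 0.573).

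The preparatory enzymes of glycolysis, which spend ATP to make triose phosphates, held 1 gene that rose and 1 that fell among 9. Pfkm, the muscle type of phosphofructokinase, the enzyme that commits sugar to glycolysis, fell. Its probe (chr15:97962713-97962772) read 0.36, 0.55 and 0.28 in TGC3, against 0.85, 0.82 and 0.93 in TG. The groups stood well apart, and the change of -0.47 ± 0.088 was 1.39-fold lower (adjusted p = 0.0150). It missed the threshold narrowly without TGC3 1 or TG 1 (adjusted p = 0.0508 and 0.0506), and with normexp the change was -0.24 (0.672). The other types of the enzyme did not pass: Pfkl, the liver type, had a change of -0.17 ± 0.11 (adjusted p = 0.309) and Pfkp, the platelet type, 0.038 ± 0.099 (0.810), both with overlapping groups. The other 2 Pfkp probes had changes of -0.13 and -0.080. Whether Pfkm differs from Pfkl or Pfkp in its change was not tested.

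Aldoc, the brain type of aldolase, was the gene that rose. It was dim even by its brightest probe, at 263, 199 and 249 intensity units in TGC3 and 146, 153 and 177 in TG. Its brightest probe (chr11:78139964-78140023) read -1.17, -1.62 and -1.32 in TGC3, against -1.94, -1.90 and -1.81 in TG. TGC3 2 was nearest to the TG arrays, though still above them. The change was 0.51 ± 0.12, or 1.43-fold higher (adjusted p = 0.0307). It did not pass without any 1 array other than TGC3 2 (adjusted p = 0.0630 to 0.0947), and a second, dimmer probe had a change of 0.066 ± 0.280 (adjusted p = 0.886). Nor did the call hold with quantile normalization, median centring, the deposited values, no filter or the mean of the probes (adjusted p = 0.0567 to 0.311), and with normexp the change was 0.0015 (0.998). Aldoa, the aldolase of muscle and most other tissues, had changes of the other sign at both its probes, -0.19 ± 0.075 and -0.25 ± 0.083, with separate groups, and did not pass (adjusted p = 0.125 and 0.0832).

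Hexokinase, which traps glucose in the cell as glucose 6-phosphate, did not pass in either form. Hk2, the form that activated T cells induce, read -2.37, -1.49 and -1.98 in TGC3, against -2.15, -1.85 and -2.06 in TG. TGC3 2 was the highest and TGC3 1 the lowest of the 6 arrays, so the spread within TGC3 (SD 0.442) exceeded the change of 0.080 ± 0.223 (adjusted p = 0.824). Hk1, the form of most tissues, varied more within the groups than between them, with 4.33, 3.82 and 4.19 in TGC3, against 4.01, 3.73 and 4.16 in TG (change 0.15 ± 0.17, adjusted p = 0.556). Its lowest value lay on replicate 2 in each group at 4 of 5 probes, where TGC3 2 was 0.364 to 0.627 below the other TGC3 arrays. The 5 probes had changes between -0.061 and 0.20, and 0 passed. Gpi1, which turns glucose 6-phosphate into fructose 6-phosphate, read 6.91, 6.98 and 6.87 in TGC3, against 7.03, 7.02 and 7.08 in TG. The groups were separate but close (-0.12 ± 0.062, adjusted p = 0.199). Tpi1, which interconverts the triose phosphates, differed by 0.17 ± 0.095 (adjusted p = 0.239) and by 0.22 at its second probe (0.18).

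**Figure D2:**
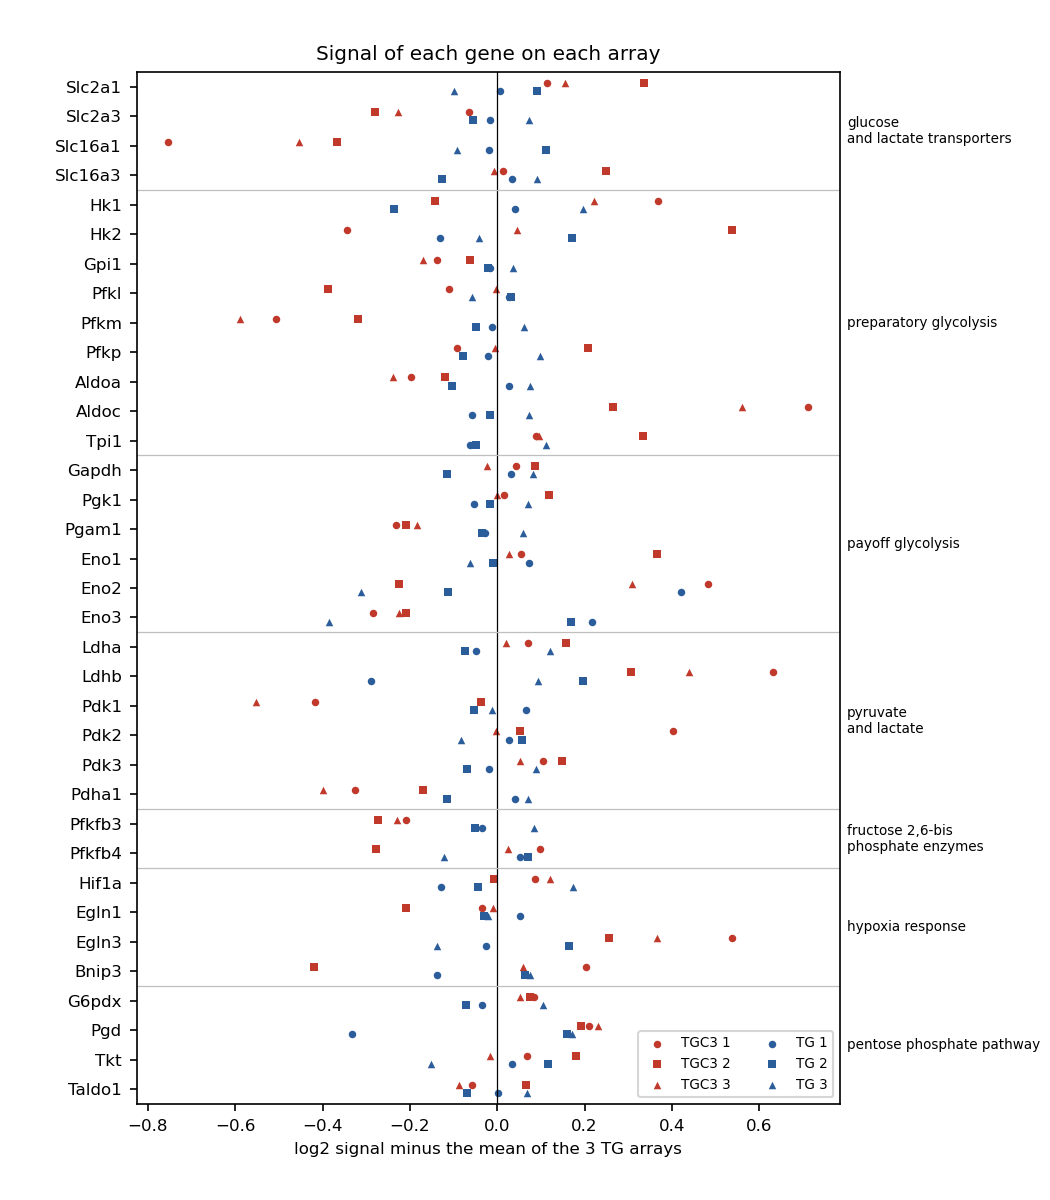
Log2 signal of each gene on each array minus the mean of the 3 TG arrays (horizontal axis), read by the brightest probe; red marks are TGC3 and blue marks TG, with circles, squares and triangles for replicates 1 to 3. The marks of the groups are apart for Slc16a1, Pfkm, Aldoc and Pfkfb3 and mixed for most other genes, such as Hk2, where TGC3 1 and TGC3 2 lie at opposite ends.

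None of the 6 measured payoff enzymes, which return ATP on the way to pyruvate, passed. Gapdh, which makes NADH at the first of these steps, read 6.03, 6.07 and 5.96 in TGC3, against 6.02, 5.87 and 6.07 in TG. The groups overlapped, and the 95% interval of the change of 0.035 reached from -0.15 to 0.22 (adjusted p = 0.770). Pgk1, the first enzyme to return ATP, had a change of 0.044 ± 0.069 (adjusted p = 0.674), but the files place both its probes on chromosome 3 while the gene lies on chromosome X. Pgam1, phosphoglycerate mutase, came nearest to the threshold of these 6, with 4.82, 4.84 and 4.86 in TGC3, against 5.02, 5.01 and 5.11 in TG. The groups were separate and tight, and the change was -0.21 ± 0.061 (adjusted p = 0.0552). It passed in 7 of 20 alternatives, among them the fit with 1 probe a gene (adjusted p = 0.0461). Of the enolases, Eno1, the form of most tissues, differed by 0.15 ± 0.11 (adjusted p = 0.352), Eno2, the neuronal form, by 0.19 ± 0.25 at its brightest probe and -0.41 ± 0.31 at a dimmer one (0.619 and 0.375), and Eno3, the muscle form, by -0.24 ± 0.16 (0.333). TG 3 was the lowest array for Eno3 (1.32, against 1.93 and 1.88 on TG 1 and TG 2), and without it Eno3 had a change of -0.43 that passed (adjusted p = 0.0206). Pyruvate kinase stands on the array under its current symbol Pkm, which is outside the list and was looked up afterwards. The brightest of its 3 probes had a change of 0.059 ± 0.107 (adjusted p = 0.725).

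At the fate of pyruvate, 0 of 6 genes passed by the brightest probe. Ldha, the lactate dehydrogenase subunit of glycolytic cells, read 6.61, 6.70 and 6.56 in TGC3, against 6.49, 6.47 and 6.66 in TG. The groups overlapped through TG 3, and the change was 0.083 ± 0.080 (adjusted p = 0.492, 95% interval -0.11 to 0.28). Ldhb, the subunit of oxidative tissues, read 0.11, -0.21 and -0.081 in TGC3, against -0.81, -0.32 and -0.43 in TG. All TGC3 values were higher, TG 1 lay well below the other TG arrays, and the change of 0.46 ± 0.15 did not pass (adjusted p = 0.0755), though it did in 4 of 20 alternatives (lowest adjusted p = 0.0365). Pdha1 encodes a subunit of pyruvate dehydrogenase, the gate from pyruvate to the citric acid cycle. It read 2.95, 3.11 and 2.88 in TGC3, against 3.32, 3.16 and 3.35 in TG. The groups were separate (-0.30 ± 0.089, adjusted p = 0.0603), but a second Pdha1 probe had a change of 0.093 (adjusted p = 0.448). The brightest probe passed in 6 of 20 alternatives (lowest adjusted p = 0.0131).

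The kinases that switch pyruvate dehydrogenase off did not pass by their brightest probes. Pdk1, a known HIF-1 target, read 1.497, 1.88 and 1.36 in TGC3, against 1.98, 1.86 and 1.90 in TG. TGC3 2 lay among the TG arrays and both other TGC3 arrays below them (-0.34 ± 0.14, adjusted p = 0.131), and without TGC3 2 the change of -0.48 passed (adjusted p = 0.0182). The second Pdk1 probe differed by -0.036 (adjusted p = 0.849). Pdk2 had a change of 0.15 ± 0.12 (adjusted p = 0.399). The brightest probe of Pdk3 had a change of 0.10 ± 0.070 (adjusted p = 0.332), while its second probe, with a position longer than the probe (chrX:91010552-91014244), rose by 0.40 ± 0.10 (adjusted p = 0.0385). That probe read -0.020, -0.048 and -0.18 in TGC3, against -0.60, -0.57 and -0.29 in TG.

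The enzymes that set fructose 2,6-bisphosphate, an activator of phosphofructokinase, differed little. Pfkfb3, the form with the strongest kinase activity, fell slightly by its brightest probe (chr2:11393579-11393638). It read 2.37, 2.30 and 2.35 in TGC3, against 2.54, 2.53 and 2.66 in TG. Both groups were tight and apart, and the change of -0.24 ± 0.066 was 1.18-fold lower (adjusted p = 0.0486). The call did not pass without any 1 array, TGC3 or TG (adjusted p = 0.0900 to 0.111), or with quantile or cyclic loess normalization, the deposited values, no filter or the mean of the probes (0.0671 to 0.159). With normexp on the deposited backgrounds the change was 0.12 (adjusted p = 0.828), so its direction turned there. Once aberrant backgrounds of TG 3 were replaced, the brightest probe stayed lower and passed. Both other Pfkfb3 probes had changes of -0.16 and -0.068 that did not pass. Pfkfb4 had a change of -0.052 ± 0.117 (adjusted p = 0.778).

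Of the probes of these genes, 10 have a position in the files longer than 60 bases. Of these, 3 cover 61 bases and the other 7 cover 170 or more, as a probe across an exon junction would. Whether these probes cross a junction was not checked against an annotation. The sequences of 5 of the 7, which belong to central enzymes described above, are shown:
Gapdh (mm9, chr6:125112105-125112274, minus strand): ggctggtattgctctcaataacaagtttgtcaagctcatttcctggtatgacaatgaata
Eno1 (mm9, chr4:149618134-149618359, plus strand): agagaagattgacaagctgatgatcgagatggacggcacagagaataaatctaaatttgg
Ldha (mm9, chr7:54109426-54110355, plus strand): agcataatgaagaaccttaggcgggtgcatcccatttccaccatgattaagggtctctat
Pfkfb3 (mm9, chr2:11411973-11414235, minus strand): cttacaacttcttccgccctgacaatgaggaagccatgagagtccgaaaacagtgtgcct
Pfkfb3 (mm9, chr2:11404189-11405602, minus strand): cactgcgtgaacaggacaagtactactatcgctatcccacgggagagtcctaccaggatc
None of these 5 passed. Of the 7, the Pdk3 probe described above passed (0.40), and that of Pfkp did not (0.038). Their changes were 0.14 for Gapdh (adjusted p = 0.333), 0.15 for Eno1 (0.352), -0.056 for Ldha (0.600), and -0.16 and -0.068 for Pfkfb3 (0.25 and 0.767).

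The regulators of the hypoxia response did not pass by their brightest probe. Hif1a, the oxygen-regulated subunit of HIF-1, read 1.11, 1.02 and 1.15 in TGC3, against 0.90, 0.98 and 1.202 in TG. TG 3 was the highest array and TG 1 the lowest, with the TGC3 arrays between them (0.067 ± 0.095, adjusted p = 0.647). Egln1, the main prolyl hydroxylase that marks HIF-1 alpha, had a change of -0.084 ± 0.077 (adjusted p = 0.467), while a dimmer Egln1 probe rose by 0.25 ± 0.070 (adjusted p = 0.0483). Egln3, a prolyl hydroxylase that HIF-1 itself induces, read -1.87, -2.15 and -2.04 in TGC3, against -2.44, -2.25 and -2.55 in TG. The groups were separate, and the change of 0.39 ± 0.11 lay just outside the threshold (adjusted p = 0.0526). It passed in 4 of 19 alternatives (lowest adjusted p = 0.0243). Bnip3, a HIF-1 target that sends mitochondria to autophagy, was lowest on TGC3 2 (-1.89, against -1.27 and -1.41 on TGC3 1 and TGC3 3) and read -1.61, -1.41 and -1.40 in TG (-0.052 ± 0.169, adjusted p = 0.849).

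The 4 genes of the pentose phosphate pathway did not pass by their brightest probe. G6pdx, glucose 6-phosphate dehydrogenase and the entry to the pathway, read 3.08, 3.07 and 3.05 in TGC3, against 2.96, 2.92 and 3.097 in TG. The TGC3 arrays were tight and lay within the range of TG (0.071 ± 0.070, adjusted p = 0.494). Pgd, the next enzyme to make NADPH, read 2.88, 2.86 and 2.90 in TGC3, against 2.34, 2.83 and 2.84 in TG. All TGC3 values lay above all TG values, with TG 1 far below the other TG arrays (0.21 ± 0.14, adjusted p = 0.327), and a second probe, with 1.16 on TG 1 and 0.99 and 1.06 on TG 2 and TG 3, had overlapping groups (-0.0041, adjusted p = 0.980). Of the enzymes that shuffle carbon back to glycolysis, transketolase (Tkt) had a change of 0.078 ± 0.095 (adjusted p = 0.590) and transaldolase (Taldo1) of -0.027 ± 0.073 (0.820).

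Probes of the same gene did not always give the same call. Of 19 genes with several measured probes, 7 had probes that differed in call and 9 had changes on both sides of 0. Among probes of the set that the files tie to Ensembl transcripts, dim ones passed for Gpi1 and Tkt. Those for Slc2a3 (-0.083, adjusted p = 0.421) and Aldoc (0.066, adjusted p = 0.886) did not pass. The one for Gpi1 read -4.81, -4.71 and -4.61 in TGC3, against -4.10, -3.92 and -3.97 in TG, and fell by 0.72 (change -0.72 ± 0.084, adjusted p = 0.0043). The one for Tkt, above background on 2 of 3 TGC3 arrays, read -5.41, -4.82 and -4.99 in TGC3, against -4.25, -3.76 and -3.87 in TG (change -1.11 ± 0.19, adjusted p = 0.0117). The bright probes of both genes did not pass. Over all 62 measured probes of the set 3 were higher and 6 lower, against 22.1% of all probes called.

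**Figure D3:**
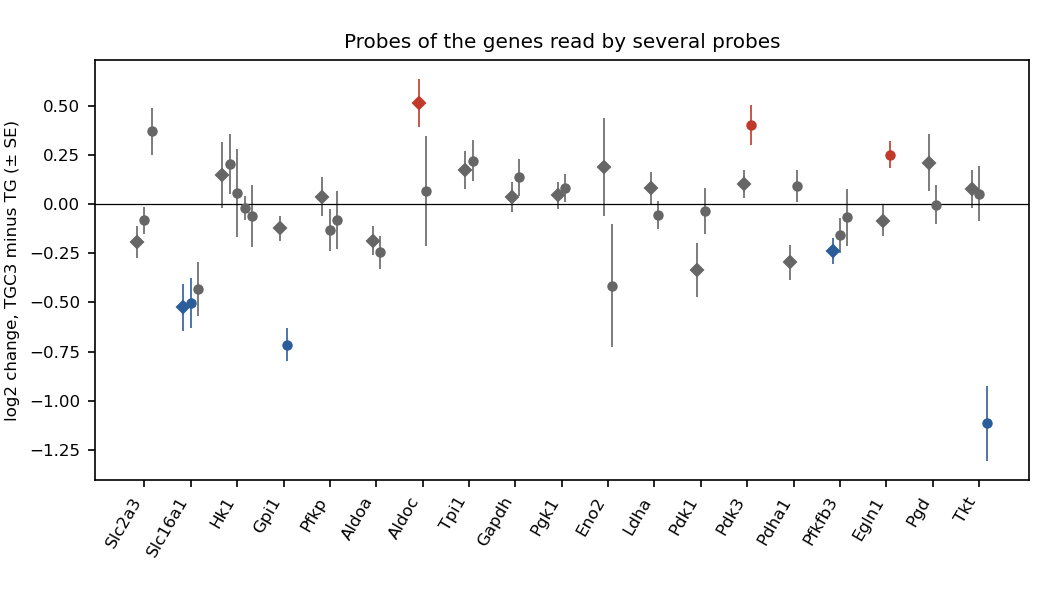
Log2 change, TGC3 minus TG, with its standard error (vertical axis) for each measured probe of the 19 genes that have several; diamonds mark the brightest probe of a gene, red is higher and blue lower at an adjusted p under 0.05. The probes of Slc16a1 lie close together between -0.52 and -0.43, while those of Gpi1 and Tkt lie far apart, with dim probes at -0.72 and -1.11.

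Many of these promoters carry the core of the hypoxia response element, searched for as ACGTG and GCGTG on both strands in the 250 bases before each start site of the RefSeq promoter table (GRCm38.p6). Of 37 symbols, 35 matched the table, with 50 start sites. A core stood in 40 of 50 windows (80.0%), at 32 genes, against 38.6% of 32851 windows of all genes. Both cores hold the letters CG, and the base composition of the windows was not compared. Some windows of the same gene overlap, as at Eno1, Aldoa and Pfkm, so a core can be counted in more than 1 window. The E-box CACGTG, which holds ACGTG on both strands, stood in 14.0% of these windows against 6.02% of all. Windows of 3 genes are shown, 1 start site each, that of the gene that fell most (Slc16a1), that of the gene that rose (Aldoc) and that of a well-known HIF-1 target that did not pass (Ldha), with the stretches covered by a core in capitals:
Slc16a1 (GRCm38.p6, chr3:104638414-104638663, plus strand): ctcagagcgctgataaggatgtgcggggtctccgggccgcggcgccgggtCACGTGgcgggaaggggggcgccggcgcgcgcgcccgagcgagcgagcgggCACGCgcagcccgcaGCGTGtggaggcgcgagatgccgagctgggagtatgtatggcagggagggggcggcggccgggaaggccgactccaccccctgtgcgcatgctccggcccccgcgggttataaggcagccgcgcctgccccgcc
Aldoc (GRCm38.p6, chr11:78322823-78323072, plus strand): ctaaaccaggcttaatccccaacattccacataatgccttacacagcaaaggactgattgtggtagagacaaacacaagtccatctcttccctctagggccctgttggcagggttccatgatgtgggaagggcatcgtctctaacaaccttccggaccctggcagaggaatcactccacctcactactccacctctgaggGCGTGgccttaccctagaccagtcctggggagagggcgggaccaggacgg
Ldha (GRCm38.p6, chr7:46845554-46845803, plus strand): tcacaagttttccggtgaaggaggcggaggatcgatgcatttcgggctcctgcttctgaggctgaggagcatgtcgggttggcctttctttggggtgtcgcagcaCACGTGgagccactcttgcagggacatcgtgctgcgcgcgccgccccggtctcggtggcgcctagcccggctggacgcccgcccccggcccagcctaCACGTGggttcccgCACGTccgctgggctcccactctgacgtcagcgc
The windows held 3 such stretches at Slc16a1, 1 at Aldoc and 3 at Ldha, and those of Slc16a1 and Ldha held the E-box. Aldoc and Ldha each have a second start site in the table, whose window is not shown and held 1 stretch and no E-box. A match describes the letters of the window and shows no binding.

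Further genes of glucose metabolism and the hypoxia response, a list of 67 symbols of which 57 were measured, had 7 higher, 5 lower and 45 not past the threshold, or 21.1% called against 24.6% of all genes. Their median change was -0.064. The largest increases were those of Slc2a2, the glucose carrier GLUT2 of liver and pancreas (1.17 ± 0.094, adjusted p = 0.00173), Pklr, the pyruvate kinase of liver and red cells (1.08 ± 0.21, adjusted p = 0.0158, above background on 1 of 3 TG arrays), Hif3a, a HIF alpha subunit (0.65 ± 0.078, adjusted p = 0.00438), and Car9, a carbonic anhydrase and HIF-1 target (0.58 ± 0.079, adjusted p = 0.00641). These were dim: Slc2a2 read 64.1, 57.4 and 53.5 intensity units in TGC3 and 24.0, 23.9 and 26.4 in TG. With the normexp correction on the deposited backgrounds all 4 had changes below 0, from -0.023 to -0.75, without passing. Once aberrant backgrounds of TG 3 were replaced, Slc2a2, Hif3a and Car9 stayed higher and passed, and Pklr did not pass. Of 8 hepatocyte markers 1 was measured (Tat), with a signal of 0.112 to 0.138 in TGC3 and 0.133 to 0.153 in TG, and Apoa1, Ttr, Cyp2e1, Fgb and Apoc3 were above background on no array. Outside the naming rule, and named after their values were seen, Epas1 rose by 0.37 and Tigar by 0.28.

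The largest decreases were those of Ddit4, an inhibitor of mTORC1 induced by hypoxia and other stress (-0.88 ± 0.15, adjusted p = 0.0115), Car12, a carbonic anhydrase (-0.87 ± 0.16, adjusted p = 0.0139), Narf (-0.56 ± 0.095, adjusted p = 0.0114) and the hypoxia-induced Ankrd37 (-0.35 ± 0.065, adjusted p = 0.0152). Ddit4 was bright and read 3.32, 3.59 and 3.61 in TGC3, against 4.62, 4.44 and 4.11 in TG, a 1.85-fold decrease with all TGC3 arrays below all TG arrays. Vhl, which recognises hydroxylated HIF-1 alpha and was named after its value was seen, fell by 0.29 (change -0.29 ± 0.070, adjusted p = 0.0314). Ankrd37 did not pass without TGC3 1 or TG 2 (adjusted p = 0.0555 and 0.0565), nor Pklr without TG 2 or TG 3 (0.0558 and 0.0502). Pklr also did not pass with quantile normalization, cyclic loess or the deposited values (0.0518 to 0.0534), and with normexp after aberrant backgrounds were replaced its change was 0.17 (0.265). With normexp on the deposited backgrounds the 4 decreases had changes of -0.33 to -1.05 and did not pass (0.672). All 4 passed once aberrant backgrounds of TG 3 were replaced.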

How the data were processed

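Each of 6 one-colour Agilent arrays held 45018 spots. The submitters' processing notes name Feature Extraction 10.7.1.1, and the file headers give 10.7.3.1. The deposited intensity (processed signal) had been background-subtracted and detrended by that program, per the file headers, without scaling between arrays. The deposited matrix is on a log2 scale with 1 median (5.58) for all arrays; how it was centred beyond that is not stated, and it served as an alternative. Of 41174 distinct probes, 11 were left out for outlier flags, spots of 1 probe were averaged on the log2 scale, and saturated spots numbered 0. The log2 processed signal minus each array's 75th percentile was compared with limma 3.58.1 in R 4.3.3 (two-sided) on 25103 probes (those well above background on 3 arrays or more), with Benjamini-Hochberg adjusted p under 0.05. A gene was read by its brightest measured probe, and names are those in the files. Of the 67 probes, 59 matched a RefSeq accession, all 59 with the same symbol. The text names every member of the set and, of the further genes, the 4 largest changes past the threshold in each direction, with others named as outside that rule. Some genes of the lists are not reported here by name. The procedure was tested on simulated data. The members and lists were chosen with earlier results of these data known. Alternatives were other normalizations, background corrections, filters, rules for probes, variance models, a block for the replicate number, and each array left out in turn.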

Additional observations from a re-analysis of the deposited data

How the results depend on the processing

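The number of arrays limits precision, and signal over background limits the dim probes. In 14 alternatives other than leaving out an array, the 35 genes gave 483 comparisons: 397 kept direction and side of the threshold, 18 lost a call, 26 gained one and 42 changed sign, 41 of these with no call either way. Genes of the set higher, 1 in the values reported, were 0 with quantile normalization, median centring, the deposited values, normexp, no filter, the mean of a gene's probes or the replicate block, 2 with normexp after 7 aberrant backgrounds of TG 3 were replaced, with a filter on all 6 arrays or with 1 probe a gene, and 3 with trend and robust settings or array weights. Genes lower, 3 in the values reported, were 9 with median centring, 1 with cyclic loess, no filter or the replicate block, 0 with normexp, 5 with replaced backgrounds, probes above the median signal or trend and robust settings, and 6 with array weights. The median of 0.044 became -0.13 with median centring and 0.22 with normexp. Of the further genes, 4 were higher and 16 lower with median centring, 0 and 0 with normexp, 4 higher with replaced backgrounds, 2 higher above the median signal, and 4 higher and 3 lower with the replicate block. Over all genes, lower calls were 4755 with median centring, 514 with no filter and 2215 with array weights, higher calls 867 above the median signal, and the replicate block gave 1680 higher and 473 lower; normexp gave 0 higher and 1 lower, with 534 at an unadjusted p under 0.05. The cause of these differences was not tested.

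The changes that took the other sign were these. With array weights, they were Hk2 -0.13, Pfkp -0.0052, Pfkfb4 0.00047 and Bnip3 0.11. With median centring, they were Slc16a3 -0.090, Hk1 -0.026, Hk2 -0.095, Pfkp -0.14, Tpi1 -0.0028, Gapdh -0.14, Pgk1 -0.13, Eno1 -0.026, Ldha -0.092, Pdk2 -0.024, Pdk3 -0.073, Hif1a -0.11, G6pdx -0.10 and Tkt -0.097. With cyclic loess, they were Eno2 -0.0072 and Taldo1 0.049. In the deposited values, they were Eno2 -0.027 and Taldo1 0.032. With the mean of a gene's probes, they were Slc2a3 0.032, Pfkp -0.058, Eno2 -0.11, Egln1 0.083 and Tkt -0.33. With normexp, they were Slc2a3 0.23, Hk2 -0.43, Gpi1 0.32, Aldoa 0.25, Pgam1 0.19, Eno2 -0.84, Eno3 0.0096, Pdk2 -0.53, Pdha1 0.082, Pfkfb3 0.12, Egln1 0.15, Egln3 -0.33, Taldo1 0.41, Slc2a2 -0.39, Pklr -0.75, Hif3a -0.023 and Car9 -0.51. With quantile normalization, they were Eno2 -0.028 and Taldo1 0.033.

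Leaving out 1 array gave 0 to 1 genes of the set higher, 0 to 4 lower and a median of 0.0097 to 0.065, with 3 to 7 further genes higher and 3 to 5 lower, and over all genes 1593 to 2264 higher and 478 to 1349 lower. With 1 array left out the sign changed at least once, with no call either way, for Hk2 (-0.15 to 0.29), Pfkp (-0.048 to 0.10), Pfkfb4 (-0.13 to 0.061), Bnip3 (-0.18 to 0.13), Taldo1 (-0.072 to 0.0079), Gapdh (-0.022 to 0.076). Samples of the same replicate number did not deviate together (correlations of -0.0029, -0.077 and -0.099 across genes). With 3 arrays in each group, these correlations cannot settle whether the numbers pair the samples. Under the replicate block Pfkm, Aldoc, Pfkfb3 and Ankrd37 did not pass (adjusted p = 0.0583, 0.0639, 0.118 and 0.0562), while Slc16a1 passed.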
